A study of Mus musculus with 29 samples.

Results

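Primary microglia were treated with an inhibitor of the microRNA miR-99b-5p (anti-miR-99b) or with a scrambled oligonucleotide (sc-control), and their polyadenylated RNA was sequenced. All 8 microglia libraries of the study's 29 entered the comparison, namely the 4 labelled as anti-miR-99b and the 4 labelled as sc-control, and every gene of the count table was considered. The other 21 libraries, from the prefrontal cortex (PFC) and from neuron-microglia co-cultures, are used only to show where the microglia differed. Microglia of both groups came from CD1 mouse pups at postnatal day 1. They had been grown as mixed glia in medium with serum and L929-conditioned medium, which supplies macrophage growth factors, and were shaken off and replated before a treatment of 2 days. The inhibitors were locked nucleic acids (LNAs), antisense oligonucleotides that bind the mature microRNA. The PFC groups were C57BL/6J mice of 3 months injected with the same kinds of oligonucleotide (n = 3 and 3). The co-cultures held cortical neurons of CD1 embryos at day 17.5 together with CD1 microglia that had been given the inhibitor (n = 7) or the scrambled control (n = 8) beforehand. The labels give all 8 microglia libraries the same batch and do not say whether each came from a separate culture, so that p-values measure only the spread between these samples, which may be technical.

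A microRNA pairs through its seed, bases 2 to 8, with sites in the 3' untranslated region (3' UTR) of messenger RNAs and lowers their level or translation. Its inhibition would release such targets. Microglia are the resident macrophages of the brain. Like other macrophages they carry sensors for foreign RNA and DNA, secrete type I interferons, and answer interferons through the JAK-STAT pathway, in which a complex with STAT2 and IRF9 binds the interferon-stimulated response element (ISRE) in promoters. The genes switched on in this way, the interferon-stimulated genes, encode antiviral effectors, more sensors and components of the pathway itself.

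The sequences below are the inhibited microRNA and its closest relatives from RefSeq (GRCm38.p6), shown because the family shares 1 seed, given in capitals. MiR-99b-5p lies on the plus strand of chr17:17830194-17830215. Counted from 1 at the 5' end, miR-99a-5p differs from it at C1A, A11U, C16U and C21U, and miR-100-5p at C1A, A11U, C16A and C21U.
miR-99b-5p: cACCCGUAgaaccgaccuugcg
miR-99a-5p: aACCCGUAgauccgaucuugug
miR-100-5p: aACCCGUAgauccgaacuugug

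Polyadenylated RNA libraries do not measure the mature microRNA, so that the inhibition itself could not be checked in these data. By quantitative PCR the study reported less detectable miR-99b-5p in primary mouse microglia given anti-miR-99b. The hairpin gene Mir99b had 1 read in the 8 libraries together, and its neighbours Mir125a and Mirlet7e had 0. Spaca6, the gene that spans this microRNA cluster, was at 14.1, 17.0, 15.4 and 14.2 CPM (read counts scaled to a common library size) in sc-control replicates 2, 3, 4 and 6. It was at 13.0, 13.4, 12.4 and 14.2 CPM in anti-miR-99b replicates 1, 3, 4 and 5. Anti-miR-99b replicate 5 lay above sc-control replicates 2 and 6, and the log2 fold change (log2FC) of -0.20 did not pass the test (edgeR, adjusted p = 0.467). Below, the values of 4 libraries of a group are always given in these replicate orders.

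The libraries held between 21324156 and 35013400 reads in genes, the fewest in sc-control replicate 2. That library stood apart from the others on the first principal component (22.5% of the variance). Microglia markers were high in all libraries. In the sc-control group, Csf1r, the receptor for macrophage growth factors, was at 562 RPKM (CPM divided by the exonic length in kilobases), and Cx3cr1, a chemokine receptor, at 322. P2ry12 (26.8) and Tmem119 (6.62), markers of microglia at rest in the brain, were lower. Markers of other glia were present, with Gfap of astrocytes at 31.5 RPKM, Mbp of oligodendrocytes at 12.1 and Olig2 of their lineage at 10.0. Stmn2 of neurons was at 3.55 and Col1a1 of fibroblasts at 3.56 RPKM, and Cldn5 of brain vessels had 0 reads.

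After inhibition of miR-99b, 65 genes were upregulated and 8 were downregulated in microglia. The upregulated genes were mostly interferon-stimulated genes, among them the nucleic acid sensors Zbp1, Eif2ak2 and Dhx58, the transcription factor Irf7 and the antiviral Ifit, Oas and Oasl families. The increases were small, from 13.2% for Fcgr1 to 119% for Ifit1bl1, with a median log2FC of 0.38 (30.2%). The downregulated genes did not gather in any of the gene lists used below, each of which held at most 1 of them. They included Wdr60, which fell by 0.38 on the log2 scale, Emc1, Pde1b, Malat1, Arid4b, Col20a1 and C130071C03Rik.

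These calls come from edgeR's quasi-likelihood test of 14953 genes, with a Benjamini-Hochberg adjusted p under 0.1 and a log2FC beyond 0.1. The upregulated genes were 0.435% and the downregulated genes 0.0535% of those tested. At an unadjusted p under 0.05, 509 genes were higher and 455 were lower, and the median log2FC of all genes was 0.0025. In 21 of the 65 upregulated genes every anti-miR-99b library was above every sc-control library, which held for 1.65% of all genes. In 7 of the 8 downregulated genes every anti-miR-99b library was below every sc-control library, against 1.8% of all genes, with Malat1 as the exception.

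**Figure D1:**
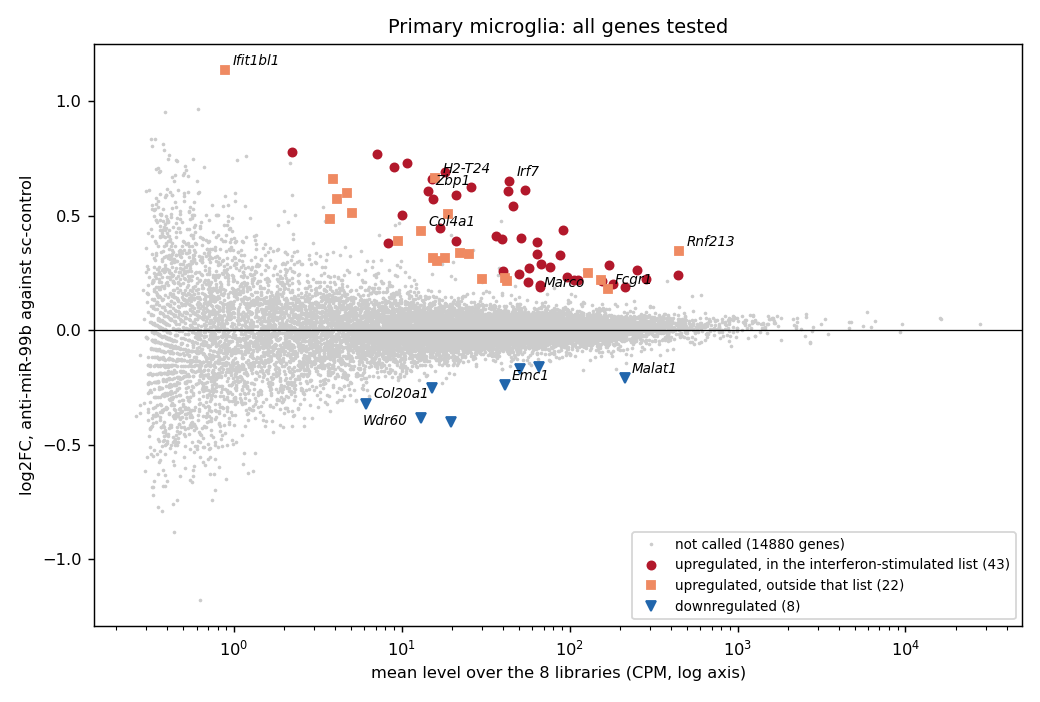
The log2FC of each tested gene (vertical axis) against its mean level over the 8 libraries in CPM (horizontal log axis), with called genes coloured. Of the 65 upregulated genes 43 belong to the interferon-stimulated list (red circles), and Ifit1bl1 has the largest log2FC, 1.13, at a low level.

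The call counts depended on single libraries. DESeq2 called 33 upregulated and 5 downregulated genes, all of them among those above. Leaving out sc-control replicate 2 gave 234 and 175, and leaving out anti-miR-99b replicate 3 gave 101 and 11. Without sc-control replicate 3 the counts were 65 and 4, and without anti-miR-99b replicate 4 they were 28 and 3. Leaving out anti-miR-99b replicate 1 gave 11 and 3, sc-control replicate 6 gave 6 and 3, and anti-miR-99b replicate 5 gave 2 and 3. Without sc-control replicate 4, edgeR called 0 upregulated and 2 downregulated genes, with 1013 genes at an unadjusted p under 0.05. In each of these 8 fits all 65 upregulated genes stayed higher, with an unadjusted p under 0.05, and all 8 downregulated genes stayed lower. The genes were chosen in these same libraries, which largely sets that they keep their sign. None of the 65 was called in all 8 fits, where H2-T24 and Ifit3b were called in 7. Wdr60 and Emc1 were called in all 8, and Col20a1 in 1.

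Anti-miR-99b replicate 3 was the lowest of its group in 61 of the 65 upregulated genes. Sc-control replicate 2 was the highest of its group in 43 of them, and replicate 2 or 3 in 63. The mean log2(CPM + 0.5) of the interferon-stimulated list was ordered likewise, with 5.34, 5.27, 5.08 and 4.98 in the sc-control libraries and 5.64, 5.30, 5.53 and 5.59 in the anti-miR-99b libraries. The library names put replicates 2 and 3 of the controls and replicates 1 and 3 of the treated group on sequencing lane 5 and the others on lane 6. All 65 genes were higher in both lanes, with a median log2 ratio of 0.20 in lane 5 and 0.53 in lane 6. All 8 downregulated genes were lower in both lanes, with medians of -0.24 and -0.26. The choice of these genes in the same libraries largely sets these signs. EdgeR on the 4 libraries of lane 5 called 0 genes (376 at an unadjusted p under 0.05) and on those of lane 6 called 166 upregulated and 63 downregulated genes. Fitting the lane as a block left 69 upregulated and 9 downregulated.

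**Figure D2:**
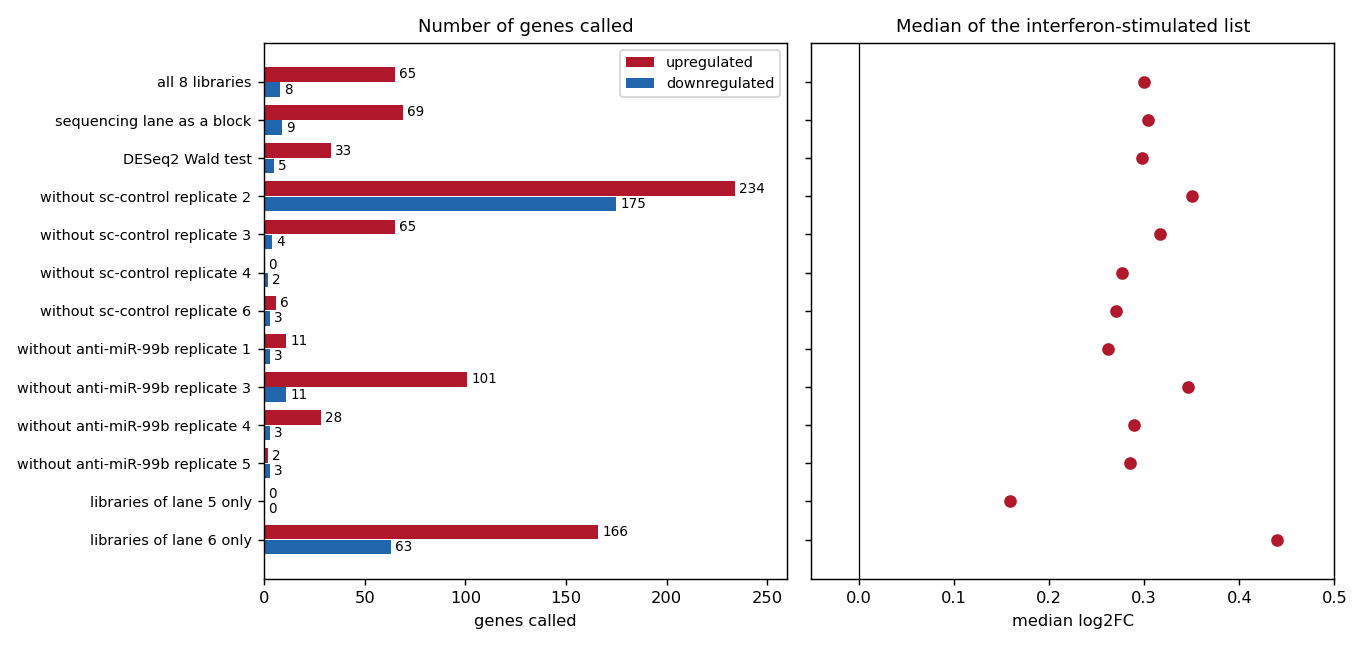
Left, the number of genes called upregulated (red) and downregulated (blue) with all 8 libraries, with other fits and with libraries left out. Right, the median log2FC of the 61 tested interferon-stimulated genes in each fit, which stayed between 0.16 (lane 5 alone) and 0.44 (lane 6 alone) while the call counts ranged from 0 to 234.

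Among the genes with the smallest p-values, Zbp1 was at 12.9, 13.6, 9.68 and 9.57 CPM in the sc-control libraries and at 19.1, 14.3, 16.9 and 18.5 CPM in the anti-miR-99b libraries. The groups did not overlap, but the lowest treated library, replicate 3, lay close above the highest control. Zbp1 encodes a sensor of left-handed double-stranded nucleic acid that starts inflammatory cell death (ENSMUSG00000027514, minus strand of chr2:173206612-173218923, mm10). Its mean rose from 11.4 ± 2.09 to 17.2 ± 2.15 CPM (SD, n = 4 each), a log2FC of 0.61 ± 0.10 (SE, edgeR adjusted p = 0.0106).

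Irf7, the transcription factor that amplifies type I interferon production, was at 42.5, 36.01, 32.7 and 26.2 CPM in the sc-control and at 61.2, 41.2, 52.3 and 58.1 CPM in the anti-miR-99b libraries. Anti-miR-99b replicate 3 lay within the sc-control range, the other replicates above it. The log2FC of Irf7 (chr7:141262706-141266481, minus strand) was 0.65 ± 0.11 (edgeR adjusted p = 0.0106), a call that DESeq2 did not make (adjusted p = 0.192). Ifit3b and H2-T24, the latter a nonclassical class I histocompatibility gene, separated the groups in all 8 libraries. Ifit3b was at 6.08, 6.26, 4.33 and 4.74 against 10.9, 6.81, 9.36 and 8.84 CPM. H2-T24 was at 13.7, 14.1, 11.3 and 10.2 against 21.5, 15.3, 19.1 and 21.2 CPM. Their log2FC values were 0.77 ± 0.12 (edgeR adjusted p = 0.0106) and 0.66 ± 0.10 (adjusted p = 0.00678). Ifit3b has a near-identical neighbour in Ifit3, as H2-T24 has a relative in H2-T23, so that reads could be split between them.

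**Figure D3:**
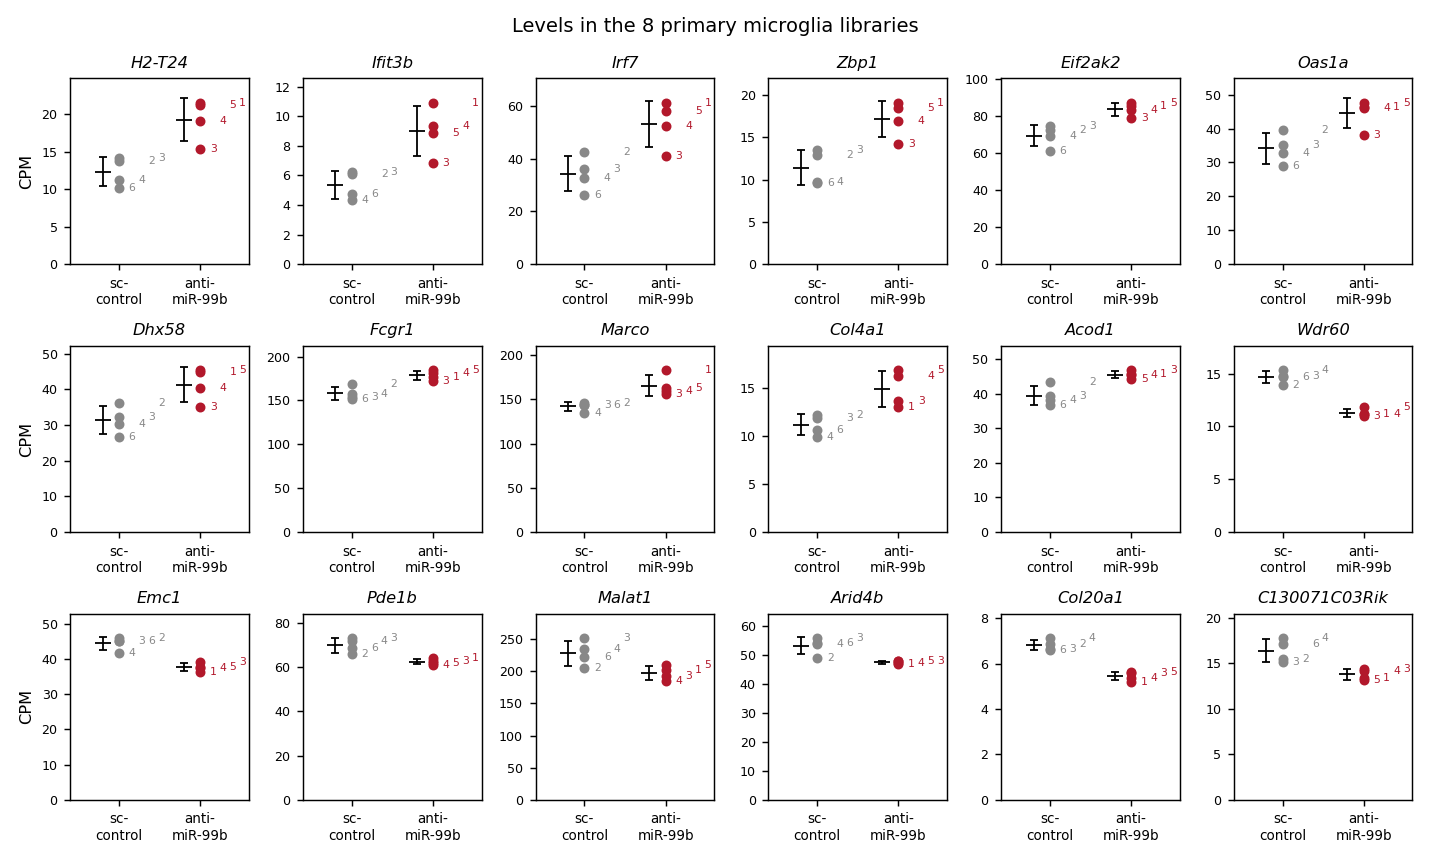
Levels in CPM (vertical axes from 0) of 11 upregulated and 7 downregulated genes in the 4 sc-control (grey) and 4 anti-miR-99b (red) libraries, with the mean and SD as a bar and the replicate number beside each point. Anti-miR-99b replicate 3 is the lowest red point for Zbp1, Irf7 and Oas1a, and the groups are apart for Wdr60, Emc1, Pde1b, Arid4b, Col20a1 and C130071C03Rik.

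The interferon-stimulated list held 62 genes, of which 61 were tested. The list was written with earlier results of these data known, so that its counts and medians are not independent of them. All 61 had a log2FC above 0, 43 were upregulated and none was downregulated, with a median log2FC of 0.30 (0.0025 over all genes tested). Ifitm3 (0.20), Isg20 (0.42), Ifi44 (0.47) and Ifi27l2a (0.18) were among the 18 tested members that did not pass the adjusted threshold. The count of 43 was 16 with DESeq2 and fell to 18, 5 and 1 without replicates 4, 1 and 5 of the treated group, and to 4 and 0 without replicates 6 and 4 of the controls. The median log2FC of the list stayed between 0.26 and 0.35 when any 1 library was left out.

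The members can be ordered by their roles. Interferons themselves were hardly detected: Ifnb1 had 4 reads in the 8 libraries together, and Ifna4, Ifng and Ifnl3 had 0. The receptor chains Ifnar1 and Ifnar2 were well expressed, with log2FC values of 0.02 and 0.02. Of the 21 tested interferon ligands, receptors and signalling genes 4 were upregulated and none downregulated, with a median log2FC of 0.04. They included Irf7, Usp18 and Stat2. Usp18, which dampens signalling at the interferon receptor, had a log2FC of 0.66 ± 0.13, and the signal transducer Stat2 had 0.33 ± 0.07. DESeq2 called neither (adjusted p = 0.596 and 0.746). The kinases Jak1 (0.01) and Tyk2 (0.03) and the Stat2 partner Irf9 (0.16, adjusted p = 0.323) did not pass the test.

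Among 25 genes of RNA and nucleic acid sensing 23 were higher and 13 upregulated, with a median log2FC of 0.25. Eif2ak2, the RNA-dependent kinase PKR, was at 72.6, 74.4, 69.4 and 61.3 CPM in the sc-control and at 85.5, 79.1, 83.2 and 87.2 CPM in the anti-miR-99b libraries. No library of 1 group fell into the range of the other, and its log2FC was 0.27 ± 0.05 (edgeR adjusted p = 0.0115). Dhx58, Ddx58 and Ifih1, the RIG-I-like RNA helicases, had log2FC values of 0.41, 0.39 and 0.25. The synthetases Oas1a (0.40) and Oas3 (0.73), the OAS-like gene Oasl1 (0.78) and the RNA editing enzyme Adar (0.22) were upregulated as well. With DESeq2, Dhx58 (adjusted p = 0.272) and Oas1a (adjusted p = 0.235) were not called. Oas1a has a near copy in Oas1g, and of the exonic bases of Adar 16.8% overlap Chrnb2 on the opposite strand, so that some reads could be shared. The adaptor Mavs, downstream of the helicases, had a log2FC of 0.04. The DNA sensor Cgas (0.05), its adaptor Sting, listed as Tmem173 (0.01), and the endosomal receptors Tlr3 (0.04), Tlr7 (0.00) and Tlr9 (0.03) did not pass the test either. Of 21 genes of the Toll-like receptor pathway none was called in either direction by edgeR, and none had an unadjusted p under 0.05.

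The listed genes of antigen presentation moved less. Of 18 genes of MHC class I and peptide loading 17 were higher, but only H2-T23 was upregulated (0.32), and the median log2FC was 0.08. The nonclassical class I gene H2-T24, upregulated by a log2FC of 0.66, is not a member of this list. At an unadjusted p under 0.05, 8 of the 18 were higher and none was lower. The classical genes H2-K1 (0.08) and H2-D1 (0.06) and B2m (0.05) did not pass the test. Of 8 tested MHC class II genes none was called, and none had an unadjusted p under 0.05.

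**Figure D4:**
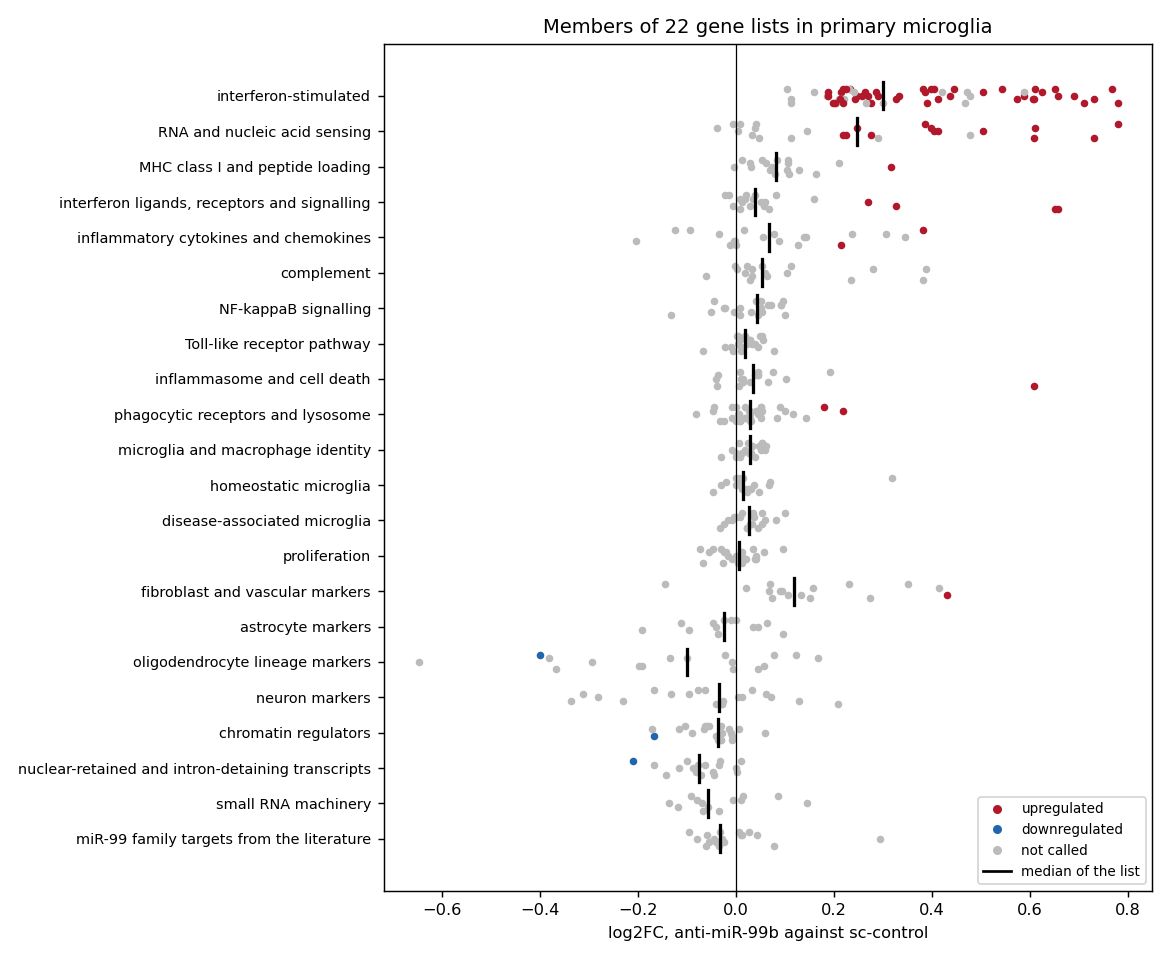
The log2FC (horizontal axis) of the tested members of 22 gene lists, with called members in red (upregulated) or blue (downregulated) and the list median as a black bar. The interferon-stimulated and nucleic acid sensing lists have medians of 0.30 and 0.25, and the oligodendrocyte lineage and nuclear-retained lists lie at -0.10 and -0.08.

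In the promoters of the upregulated genes the core of the ISRE, GAAA followed after any 2 bases by GAAA, was searched on both strands in 300 bases, from 250 before to 50 after the start site (RefSeq, GRCm38.p6). Promoters were at hand for 50 of the 65 genes, some with more than 1. Of these genes 24 (48%) held a match in at least 1 promoter. The share was 3.85% over the 10947 tested genes with a promoter, counted likewise. Over all 32851 promoters, counted singly, it was 3.44%. Of the 7 downregulated genes with a promoter, Pde1b and Arid4b held a match. Of 38 matches in the upregulated genes 29 had their centre in the last 150 bases before the start site. Over all their promoters 13 genes held more than 1 match, some of them overlapping and some in different promoters. The following stretches show the match in capitals for genes of different roles, with Pde1b as a downregulated gene. A match on the opposite strand reads TTTC, any 2 bases and TTTC.
Ifit3, chr19:34583353-34583402 (+): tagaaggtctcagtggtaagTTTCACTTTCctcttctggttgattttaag
Isg15, chr4:156200855-156200904 (-): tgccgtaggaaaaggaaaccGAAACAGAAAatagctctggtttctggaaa
Eif2ak2, chr17:78882525-78882574 (-): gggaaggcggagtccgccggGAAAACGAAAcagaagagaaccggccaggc
Oas1a, chr5:120907510-120907559 (-): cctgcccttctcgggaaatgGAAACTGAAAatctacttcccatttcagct
Stat2, chr10:128270256-128270305 (+): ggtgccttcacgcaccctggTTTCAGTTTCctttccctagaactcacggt
Cxcl10, chr5:92349073-92349122 (-): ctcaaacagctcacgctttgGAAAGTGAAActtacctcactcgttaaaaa
Pde1b, chr15:103507056-103507105 (+): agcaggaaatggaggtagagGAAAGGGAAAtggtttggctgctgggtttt
The promoter stretch of Ifit3 was letter for letter the one before Ifit3b (chr19:34607749-34607798). A match describes the letters in this window and does not show that a factor bound there.

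Of the 65 upregulated genes 21 lay outside the lists of interferon-stimulated, sensing, interferon signalling and MHC class I genes. By their families 14 of these were relatives of listed genes, with log2FC values from 0.22 to 1.13. They included the immunity-related GTPases Irgm2, Igtp and Gm12250, the guanylate-binding protein Gbp9, the HIN-200 genes Ifi202b, Ifi209 and Mndal, and Ifit1bl1. The last rose the most, by a log2FC of 1.13 ± 0.25, from a mean of 0.564 to 1.21 CPM, and replicate 3 of the treated group (0.774 CPM) lay below sc-control replicate 2 (0.849 CPM). The HIN-200 genes are similar in sequence, and reads could be split between them.

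The other 7 encode phagocyte receptors, matrix proteins and a metabolic enzyme, and rose by log2FC values of 0.18 to 0.51. Fcgr1, the high-affinity receptor for immunoglobulin G, was at 169, 154, 157 and 152 CPM in the sc-control and at 177, 172, 181 and 184 CPM in the anti-miR-99b libraries. Marco, a scavenger receptor that binds bacteria and particles, was at 146, 144, 135 and 144 against 183, 156, 160 and 163 CPM. Both genes separated the groups, by a log2FC of 0.18 ± 0.03 and 0.22 ± 0.04 (edgeR adjusted p = 0.0232 for each). They were the upregulated members of the list of phagocytic receptors and lysosome, in which 27 of 36 genes were higher and the median log2FC was 0.03. The receptors Trem2, Mertk, Itgam and Clec7a of the same list had log2FC values between -0.03 and 0.02.

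Acod1, which makes the antimicrobial metabolite itaconate, was at 43.3, 39.5, 38.2 and 36.8 against 45.6, 46.7, 45.4 and 44.4 CPM (log2FC 0.21 ± 0.04, edgeR adjusted p = 0.0282). Together with Cxcl10, a chemokine for T cells (0.38), it was upregulated in the list of 20 tested inflammatory cytokines and chemokines, whose median log2FC was 0.07. At an unadjusted p under 0.05, 8 of the 20 were higher and none was lower, against 509 higher and 455 lower of 14953 genes tested. In 4 of the 20 every anti-miR-99b library was above every sc-control library, which held for 1.65% of all genes. The neutrophil and monocyte chemokines Cxcl2 (0.13), Ccl2 (0.14) and Ccl3 (-0.0035) did not pass the test. Of 20 genes of NF-kappaB signalling, the other main inflammatory pathway of macrophages, edgeR called none, and 3 were higher and 1 lower at an unadjusted p under 0.05. Of 18 genes of the inflammasome and cell death only Zbp1 was called, while its partners Ripk3 (0.04), Ripk1 (0.01) and Mlkl (0.10) and the inflammasome gene Nlrp3 (0.04) did not pass.

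The matrix genes among the 7 were Col4a1, a collagen of basement membranes, Col6a2, Thbs1 and Serpinf1. Col4a1 was at 12.2, 11.8, 9.85 and 10.6 CPM in the sc-control and at 13.0, 13.6, 16.2 and 16.8 CPM in the anti-miR-99b libraries. The groups did not overlap, and the log2FC was 0.43 ± 0.08 (edgeR adjusted p = 0.0238). In the treated group Col4a1 was lowest in replicate 1, not 3. Col6a2 (0.49), Thbs1 (0.30) and Serpinf1 (0.51) followed with smaller effects against their spread (adjusted p between 0.0571 and 0.0809). In the list of fibroblast and vascular markers 15 of 16 tested genes were higher, with a median log2FC of 0.12, and Col4a1 was the only one called. The summed level of the list was 564 to 670 CPM in the sc-control and 578 to 723 CPM in the anti-miR-99b libraries, where Cldn5 was at 0. The part of such cells in the rise of the matrix genes was not tested. In bulk RNA, fewer or more cells of a type and less or more RNA per cell cannot be told apart.

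The 8 genes that the study compared by quantitative PCR after miR-99b inhibition are given here. In primary microglia it reported increases of Il1b, Tgfb1 and Tnf by that method, and of C1qa, C1qb, C1qc and C3. The sources used here do not say whether the same cultures were sequenced. In these libraries, apart from Zbp1 none of the 8 was called. C3, the central complement component, was at 195, 177, 177 and 172 CPM in the sc-control and at 203, 190, 189 and 196 CPM in the anti-miR-99b libraries, so that sc-control replicate 2 lay among the treated samples. Its log2FC of 0.11 ± 0.03 did not pass the adjusted threshold (edgeR adjusted p = 0.362). C1qa (0.05), C1qb (0.03) and C1qc (0.06), the chains of the initiator of the classical pathway, and the cytokine gene Tgfb1 (0.08) were all higher, and none of them passed either. Il1b was at 12.7, 12.9, 10.0 and 12.2 against 11.0, 13.3, 11.2 and 11.0 CPM (log2FC -0.03), and Tnf at 40.6, 35.5, 38.02 and 34.2 against 38.7, 37.4, 37.3 and 35.9 CPM (log2FC 0.02). For these 2 cytokines the ranges of the groups overlapped, and the sign changed when single libraries were left out. Of 17 tested complement genes 15 were higher and none was called by edgeR, with a median log2FC of 0.05 and 2 genes higher at an unadjusted p under 0.05.

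No gene of the identity lists was called. Of 20 microglia and macrophage identity genes, 19 tested homeostatic genes and 20 genes of disease-associated microglia, 16, 14 and 14 were higher, and their medians were 0.03, 0.01 and 0.03. With edgeR at an unadjusted p under 0.05, 0, 0 and 2 of them were higher and none was lower.

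Among the downregulated genes, Wdr60 had the smallest p-value of all genes tested. It encodes a dynein intermediate chain for transport inside cilia (ENSMUSG00000042050, minus strand of chr12:116206262-116263022). It was at 14.0, 14.7, 15.3 and 14.7 CPM in the sc-control and at 11.1, 10.9, 11.2 and 11.8 CPM in the anti-miR-99b libraries. The gap between the groups was wider than the range within either, and Wdr60 fell by 0.38 ± 0.06 on the log2 scale (edgeR adjusted p = 0.00678). Emc1, a subunit of the complex that inserts membrane proteins into the endoplasmic reticulum, was at 45.9, 45.2, 41.8 and 45.3 against 36.3, 39.1, 37.5 and 37.8 CPM. It fell by 0.24 ± 0.04 (edgeR adjusted p = 0.0110). Of its exonic bases 29.3% overlap 2700016F22Rik on the opposite strand, and since the strand setting of the counting is not given in the sources used here, part of the reads could belong to that gene.

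In the list of oligodendrocyte lineage markers 12 of 17 tested genes were lower, 7 at an unadjusted p under 0.05, and the median log2FC was -0.10. Of the 17 genes 1 was downregulated. In 5 of the 17 every anti-miR-99b library was below every sc-control library, against 1.8% of all genes, and in none above. The summed level of the list was 392 to 451 CPM in the sc-control and 389 to 424 CPM in the anti-miR-99b libraries. Late markers such as Mog (-0.65), Myrf (-0.38) and Mbp (-0.10) lay on the lower side, while Olig1 (0.04), Olig2 (-0.02) and Pdgfra (-0.01) of the early lineage had values near 0, and none of these passed the test. The part of oligodendrocytes among the cultured cells in these differences was not tested. Astrocyte markers (4 of 13 higher) and neuron markers (7 of 20 higher) had medians of -0.03 and -0.04, with none called by edgeR. At an unadjusted p under 0.05, 1 gene of each list was lower and 1 neuron marker higher.

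The other downregulated genes were of several kinds. Pde1b, a phosphodiesterase for cyclic nucleotides, was at 65.7, 73.0, 71.6 and 68.7 against 64.1, 62.6, 61.0 and 62.1 CPM and fell by 0.16 (edgeR adjusted p = 0.0421). Col20a1, a collagen, was at 6.89, 6.67, 7.12 and 6.61 against 5.21, 5.58, 5.38 and 5.64 CPM and fell by 0.32 (adjusted p = 0.0785). Both separated the groups, Pde1b narrowly. C130071C03Rik, a long noncoding RNA that overlaps the hairpin of Mir9-2, was at 15.5, 15.1, 17.8 and 17.1 against 13.4, 14.4, 14.2 and 13.2 CPM and fell by 0.25 (adjusted p = 0.0798). Of its exonic bases 23.4% overlap Gm33366 on the opposite strand. Neither Col20a1 (adjusted p = 0.336) nor C130071C03Rik (adjusted p = 0.151) was called by DESeq2.

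Malat1, a noncoding RNA that stays in nuclear speckles, was at 205, 252, 234 and 222 CPM in the sc-control and at 202, 192, 185 and 210 CPM in the anti-miR-99b libraries. Sc-control replicate 2 lay among the treated libraries, and the gene fell by 0.21 ± 0.05 (edgeR adjusted p = 0.0421), without a call by DESeq2 (adjusted p = 0.572). Among 18 transcripts that are retained in the nucleus or keep introns 16 were lower, 9 at an unadjusted p under 0.05, with a median log2FC of -0.08, and Malat1 was the only one called. Neat1 (-0.17) and the kinase Clk1 (-0.09) lay on the same side without passing. The summed level of this list was 3674 CPM in sc-control replicate 2, between 3991 and 4177 CPM in the other controls and between 3788 and 3862 CPM in the anti-miR-99b libraries. Arid4b, a chromatin regulator, fell by 0.17 (adjusted p = 0.0568) and was at 49.2, 55.9, 53.9 and 54.3 against 47.0, 48.0, 47.4 and 47.9 CPM. In the list of chromatin regulators 20 of 22 genes were lower, with a median of -0.04, and Arid4b was the only one called. The summed level of the list was 2384 CPM in sc-control replicate 2, between 2611 and 2683 CPM in the other controls and between 2464 and 2608 CPM in the anti-miR-99b libraries. Long transcripts tended to the lower side among all genes. The median log2FC was 0.0092, 0.0096, 0.0049 and -0.0119 from the shortest to the longest quartile of exonic length. Removing this trend ended the call of Arid4b. The median exonic length was 3776 bases for upregulated, 6173.5 for downregulated and 4275 for all tested genes.

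Genes with a site for the seed did not lie higher as a group. The letters TACGGGT, which pair with bases 2 to 8 of the microRNA, were found in the 3' UTR of 185 of the 13268 tested genes with an annotated 3' UTR (GENCODE M21). Their median log2FC was -0.0092, 82 of them were higher, and edgeR called none in either direction, with 7 higher and 7 lower at an unadjusted p under 0.05. In 37 genes the site was followed by an A (TACGGGTA), and the median there was -0.0114. The 13083 genes without the site had a median of 0.0041 and held 64 of the upregulated and 6 of the downregulated genes. The shorter match to bases 2 to 7 was in 942 genes (7.10%), with a median of -0.0008, and 3 of these were upregulated, namely Acod1, Cxcl10 and Dtx3l. The longest annotated 3' UTR of Zbp1 did not hold these letters, which says no more than that. The study reported that a synthetic copy of miR-99b-5p lowered the activity of a reporter gene carrying the Zbp1 3' UTR. No such effect was reported after the predicted seed region in that 3' UTR was mutated.

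Some known or proposed sites are shown with the seed match in capitals (GRCm38). Mtor, the growth kinase, Igf1r, a growth factor receptor, and Kbtbd8, an adaptor of a ubiquitin ligase, are targets of the miR-99 family from the literature. Ptgir, the prostacyclin receptor, is among 13 targets that the study predicted from its PFC data, and Cxcl10 is upregulated here.
Mtor, chr4:148557138-148557167 (+): taactgagaaaTACGGGTtttgacttaact
Igf1r, chr7:68232096-68232125 (+): gtccagtagatTACGGGTAgtcgttgacga
Kbtbd8, chr6:95127287-95127316 (+): tttcttttaacTACGGGTAacaatatgagg
Ptgir, chr7:16910846-16910875 (+): taatttttattTACGGGTAttttaccacaa
Cxcl10, chr5:92347593-92347622 (-): attatacctgtcACGGGTAaagctgccaaa
Mtor was at 88.3, 90.6, 93.4 and 85.4 CPM in the sc-control and at 90.2, 83.9, 88.1 and 87.4 CPM in the anti-miR-99b libraries, and the groups overlapped (log2FC -0.03). Igf1r (-0.05), Kbtbd8 (-0.06) and Ptgir (0.19) did not pass the test either. Of 19 tested literature targets 7 were higher and edgeR called none, with 1 higher and 1 lower at an unadjusted p under 0.05 and a median log2FC of -0.03. Of the 13 predicted targets 11 were higher and 6 upregulated, with a median of 0.22. The upregulated ones included Zbp1 (0.61), Slfn5 (0.44), Xaf1 (0.39), Ifih1 (0.25) and Bst2 (0.22), and the 6 belong to the interferon-stimulated or sensing lists. DESeq2 did not call Slfn5 (adjusted p = 0.594) and Xaf1 (adjusted p = 0.477). The predicted targets were chosen by the study among genes higher in its PFC libraries, not in the microglia. Only Hunk and Ptgir of the 13 held the match to bases 2 to 7 in the 3' UTR used here. Of 13 genes of the small RNA machinery 9 were lower and none was called by edgeR, with 4 lower and 2 higher at an unadjusted p under 0.05, and Ago2 had a log2FC of -0.08.

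The genes called in microglia were then followed in the other 2 experiments, which share no library with the microglia. In the PFC 59 of the 65 upregulated genes were also higher after anti-miR-99b, against 48.2% of all genes. Of the 59 genes 45 had an unadjusted p under 0.05, and 7.35% of all genes were higher at that p. Marco and Ifi202b had 0 reads in the PFC and could not be compared there. The median log2FC of the 65 genes was 0.57 in the PFC and 0.40 in the microglia in the joint fit. In the co-cultures 59 were higher (51.2% of all genes), 19 of them with an unadjusted p under 0.05 (6.31% of all genes). The median there was 0.17 against 0.39. Of the 8 downregulated genes 4 were also lower in the PFC and 3 in the co-cultures, and none of the 8 had an unadjusted p under 0.05 in either experiment. The joint fits give slightly other values for the microglia than the fit of the microglia alone, and the genes were chosen by the microglia contrast, so that their microglia values lean away from 0.

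**Figure D5:**
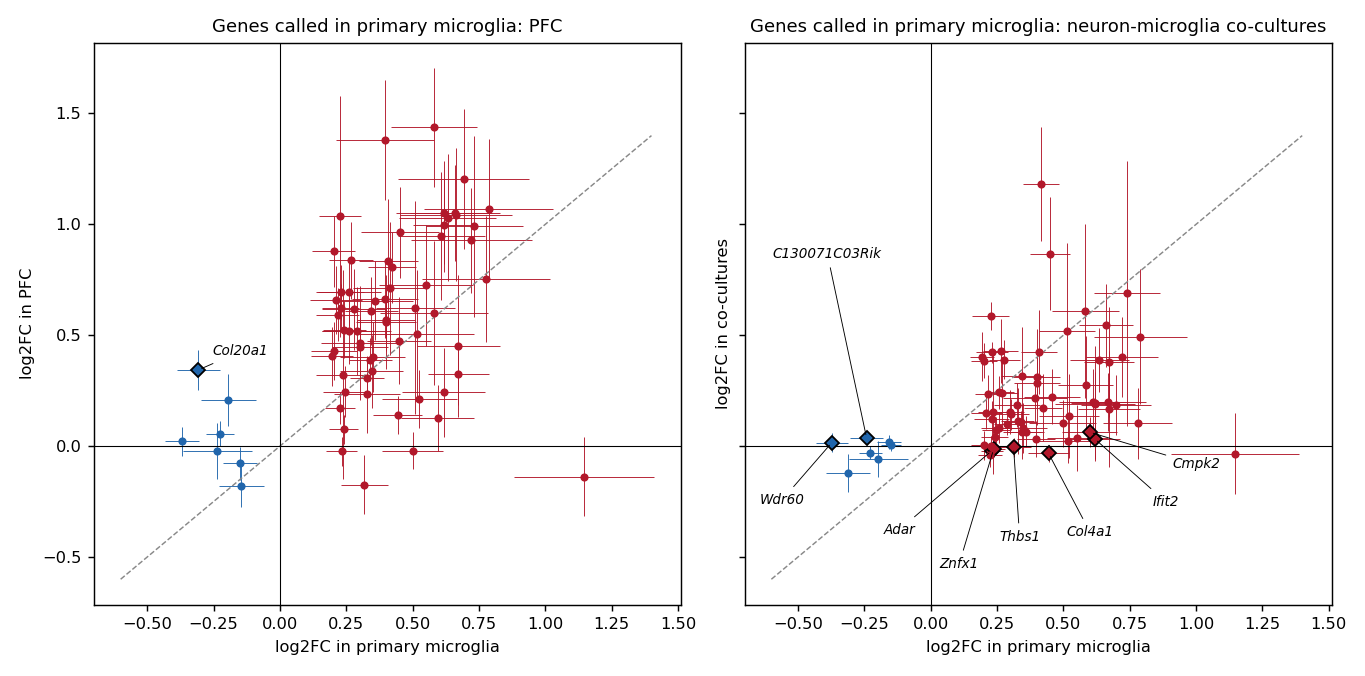
The log2FC of genes called in microglia (horizontal axes) against the log2FC in the PFC (left) and in co-cultures (right), with SE bars and a dashed line of equal values. Genes whose log2FC differed between the experiments are drawn as named diamonds. Genes not reported here by name are left out of both plots, and Marco and Ifi202b, which have 0 reads in the PFC, of the left one.

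The log2FC of 22 of 18366 genes (0.12%) differed between microglia and PFC (edgeR interaction, adjusted p under 0.1), 21 of them with the smaller value in microglia. Among the 73 genes called in microglia only Col20a1 did, at -0.31 in microglia and 0.34 in the PFC (difference -0.65 ± 0.12, adjusted p = 0.0529). For Zbp1 the values were 0.62 in microglia and 1.00 in the PFC, with a difference of -0.38 ± 0.24 that did not pass (adjusted p = 0.659). Between microglia and co-cultures 69 of 17579 genes (0.393%) differed, with the smaller value in microglia for 54 of them and the larger for 15, and 9 of the 69 were called in microglia. Col4a1 was at 0.44 in microglia and -0.03 in co-cultures (difference 0.48 ± 0.09, adjusted p = 0.00409). The interferon-stimulated genes Ifit2 and Cmpk2 were at 0.62 and 0.60 in microglia and at 0.03 and 0.06 in co-cultures, and Adar, Znfx1 and Thbs1 also had larger values in microglia, by 0.25, 0.25 and 0.32. Of the downregulated genes Wdr60 (-0.37 in microglia, 0.02 in co-cultures) and C130071C03Rik (-0.24 and 0.04) were among those that differed. For Irf7 (0.66 and 0.54) and Oas1a (0.41 and 0.42) the differences of 0.12 ± 0.22 and -0.02 did not pass. Those of Zbp1 (0.62 and 0.19, difference 0.43 ± 0.28) and Ddx58 (0.40 and 0.03, difference 0.37 ± 0.11) did not pass either. Over the 15 co-culture libraries these genes had, in this order, 965, 381, 205 and 4018 reads. In the co-cultures RNA of neurons is counted together with that of microglia, and the interval between treatment and harvest was longer.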

How the data were processed

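Polyadenylated RNA of the 8 microglia libraries had been sequenced by the authors as single reads from TruSeq libraries. The submitters' processing notes name bcl2fastq 2.20.2, FastQC 0.11.5, STAR 2.5.2b, featureCounts 1.5.1 and the mm10 build. The authors deposited raw counts of reads per gene without normalization for 48709 Ensembl identifiers, and GENCODE M21 (GRCm38) supplied symbols for 48349 of them. The annotation release and strand setting of the counting are not given in the sources used here. Groups came from the sample labels, lanes and replicate numbers from the library names.

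In R 4.3.3, low genes were removed with filterByExpr and the groups compared with edgeR 4.0.16 (TMM factors, quasi-likelihood test, no covariate, Benjamini-Hochberg adjustment). Genes were called at an adjusted p under 0.1 and a log2FC beyond 0.1. The SE is the log2FC divided by the square root of F. For differences near 0 it is rough and can be too small. For Oas1a the SE of the difference from co-cultures (0.18) was below that of the co-culture value alone (0.19). Levels are CPM with TMM factors. Differences between experiments are interaction contrasts in fits with 4 group means. DESeq2 1.42.0 was an alternative. Scripts were tested on simulated data. No 2 libraries of a group agreed within sampling noise (chi-square per degree of freedom 1.58 to 4.65).

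Genes and lists were chosen with earlier results of these data known. The text names the smallest p-values in each direction, overall and outside the interferon lists, the largest changes, called members of each list, the genes of the quantitative PCR, of the predicted targets and of the miR-99b locus, and the smallest interaction p-values. Genes outside this rule were chosen after their values were seen. A few genes of the lists and calls are counted but not reported here by name.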

Additional observations from a re-analysis of the deposited data

Results flagged for a closer look

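In 5 of 176 combinations of a gene and a group of 4 libraries, 1 library lay far from the other 3 by Dixon's test, and chance flags about 1 in 20. Emc1 was lowest in sc-control replicate 4 (41.8 CPM), the control closest to the treated libraries. Bst2, an interferon-stimulated membrane protein that tethers viruses, was highest in sc-control replicate 2 (118 CPM). Anti-miR-99b replicate 3 was the distant library for Oas1a (38.2 CPM, lowest), Epsti1 (40.1 CPM, lowest) and Il1b (13.3 CPM, highest).

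The log2FC of Col20a1 differed between microglia and PFC by -0.65 (edgeR interaction). Between microglia and co-cultures the differences, microglia minus co-cultures, were 0.58 for Ifit2, 0.54 for Cmpk2, 0.48 for Col4a1, 0.32 for Thbs1, 0.25 for Adar, 0.25 for Znfx1, -0.28 for C130071C03Rik and -0.39 for Wdr60. Only genes already called in microglia were considered in this part. Over all genes tested, 22 differed between microglia and PFC and 69 between microglia and co-cultures.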

How the results depend on the processing

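In every alternative fit of microglia libraries all 65 upregulated genes stayed higher and all 8 downregulated genes lower, which their choice in the same libraries largely sets. The counts of upregulated genes, downregulated genes and upregulated interferon-stimulated genes were 33, 5 and 16 with DESeq2. With every gene of at least 1 read tested they were 138, 29 and 57, and with 1 factor of unwanted variation removed (RUVs) 118, 42 and 55. At an adjusted p under 0.05 they were 55, 5 and 41. When 1 library was left out they ranged from 0 to 234, from 2 to 175 and from 0 to 59. The libraries of lane 5 alone gave 0, 0 and 0, and those of lane 6 alone 166, 63 and 58, an alternative chosen after seeing the data. Other scaling factors, a minimum of 10 reads in every library, the lane as a block and removal of the length trend kept all 3 counts within 1.5 times, and the last of these ended the call of Arid4b. For the differences between experiments, DESeq2 gave 166 genes against the PFC and 116 against the co-cultures, and an adjusted p under 0.05 gave 9 and 42. The median of the seed-site genes ranged from -0.0133 to -0.0042 when 1 library was left out. The cause of these shifts was not tested.

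Replicate numbers 3 and 4 occur in both groups, but nothing in the labels says that they pair cultures, and the correlation of the deviations of same-numbered libraries was -0.0443 over 2 pairs. A replicate block on those 4 libraries gave 87 upregulated genes, 162 downregulated genes and 35 interferon-stimulated genes, with 44 of the 65 and 6 of the 8 genes among them, and Col20a1 and C130071C03Rik lost. Under this pairing the log2FC of Il1b was 0.0932. When 1 library was left out, the log2FC of Il1b ranged from -0.113 (without sc-control replicate 4) to 0.00275 (without sc-control replicate 3), and that of Tnf from -0.0245 (without sc-control replicate 6) to 0.0576 (without sc-control replicate 2). Tnf was also below 0 without sc-control replicate 3 (-0.00477) and without anti-miR-99b replicate 1 (-0.0047). With 4 libraries a group, changes of the size of Il1b or Tnf could not be told from 0.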

Other observations

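Several lists outside the comparisons above moved little in microglia. Of 16 glycolysis genes 15 were higher, with a median log2FC of 0.05, among them Aldoa (0.06) and Ldha (0.05), and edgeR called none, with 0 at an unadjusted p under 0.05. Of 20 immediate early genes 16 were higher (median 0.04), and of 25 proliferation genes 15 (median 0.00). For cholesterol synthesis it was 12 of 19 (0.03), for iron handling 7 of 12 (0.02), for the unfolded protein and integrated stress response 12 of 18 (0.01) and for p53 targets 9 of 14 (0.02). EdgeR called none of these genes, and between 1 and 2 members of each of these 6 lists were higher at an unadjusted p under 0.05, with 1 iron gene lower. Of 7 tested mitochondrially encoded genes 2 were higher (median -0.03), with none called by edgeR and 0 at an unadjusted p under 0.05, and these genes took 1.89% to 2.05% of the reads in every library.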
